A study of Mus musculus with 16 samples.

Results

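The insulin-like growth factor (IGF) axis was followed here through 10 genes, found by symbol among the 45724 genes of the deposited tables, and all 10 were present. They were the protease Pappa, the ligands Igf1 and Igf2, the receptors Igf1r and Igf2r, and the binding proteins Igfbp2, Igfbp3, Igfbp4, Igfbp5 and Igfbp7. The cells were primary neurons cultured from C57BL/6 mouse brain at postnatal day 0. They received NP24, Tβ10 or Tβ4, which the labels describe as peptides derived from the subcommissural organ, or Dulbecco's phosphate-buffered saline (DPBS) as the control. Tβ10 and Tβ4 are β-thymosins, small actin-binding peptides. Each of the 4 groups had 4 libraries of total RNA. The dose, the length of exposure and the number of mice behind a library are not given in the sources used here, and nor is whether the libraries came from separate cultures, so the p-values measure only the spread between these libraries, which may be technical.

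IGF1 and IGF2 act mainly through the receptor tyrosine kinase IGF1R, which signals through insulin receptor substrates to the PI3K, AKT and mTOR kinases and promotes survival and growth of developing neurons. IGF binding proteins hold the ligands outside the cell, and pappalysin (PAPP-A, the product of Pappa) is a secreted metalloprotease that cuts IGFBP4 and IGFBP5 and so releases the ligand they hold. IGF2R, also called the cation-independent mannose 6-phosphate receptor, carries IGF2 to lysosomes. In the brain, IGF2 comes largely from the meninges, vessels and choroid plexus, while neurons, microglia and other cells make IGF1.

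The libraries held 11642242 to 38254320 reads in genes, which makes 1 read worth 0.536 to 1.71 normalized counts depending on the library. All 8 neuron markers were detected in every group, with summed levels of 67536 to 73535 in NP24, 66076 to 72684 in Tβ10, 50264 to 74213 in Tβ4 and 59814 to 66635 normalized counts in control libraries. Markers of astrocytes, microglia and the oligodendrocyte lineage were also present, so the cultures were not of neurons only. Fewer cells of a type and less RNA per cell cannot be told apart in such bulk libraries. Tβ4 libraries 1 and 2 stood apart from the other Tβ4 libraries in several of the genes described. Mitochondrial ribosomal RNA took 24.3% of reads in Tβ4 library 1, and Igf1r was highest and Igfbp3, Igfbp4 and Igfbp5 lowest of the group in Tβ4 library 2. Results are therefore given without one of these libraries where that changed a call.

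Scaled to exon length, the receptors and Igfbp2 and Igfbp5 were the most abundant of the 10 transcripts and Igf2 the least. In controls the level was 375 ± 19.1 normalized counts per kb for Igf1r, 325 ± 36.2 for Igfbp2, 257 ± 60.6 for Igfbp5 and 256 ± 26.8 for Igf2r (mean ± SD, n = 4). Next came Igfbp3 at 73.8 ± 12.4, Igfbp4 at 66.7 ± 6.94, Igfbp7 at 62.1 ± 20.7 and Igf1 at 34.9 ± 6.72 per kb, then Pappa at 25.8 ± 9.66 and Igf2 at 4.37 ± 1.57 per kb. Among neighbours in this control order, the libraries' ranges were separate between Igf1r and Igfbp2, between Igf2r and Igfbp3 and between Pappa and Igf2, and overlapped elsewhere. The order was not the same in every group. Igfbp7 had rank 8 in NP24 libraries, at 15.6 ± 3.68 per kb, and rank 5 in Tβ4 libraries, at 155 ± 81.8 per kb, against rank 7 in controls.

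**Figure D1:**
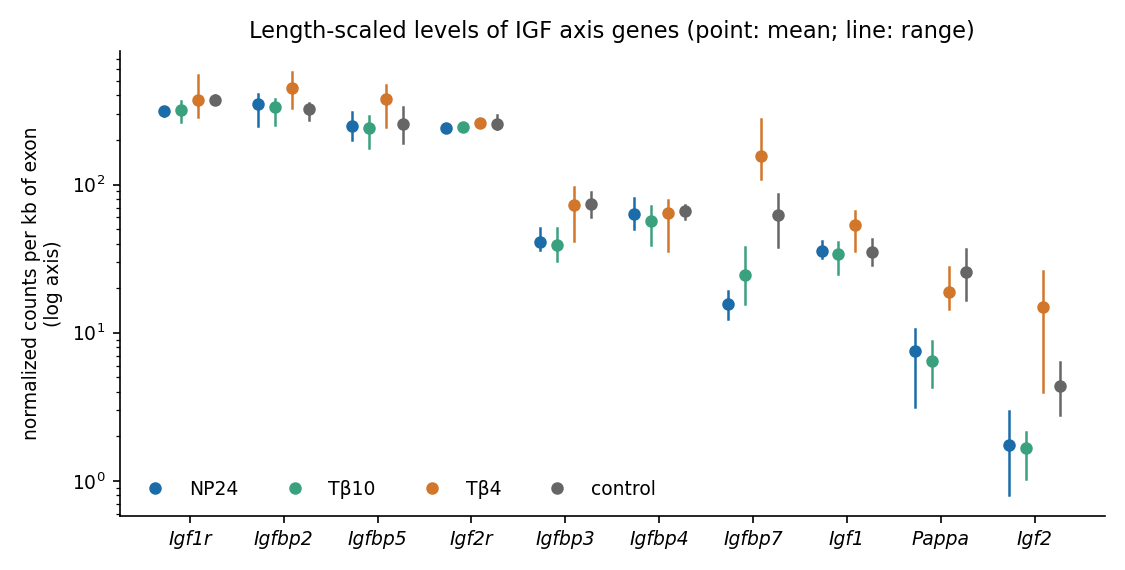
Normalized counts per kb of exon (log axis) for the 10 genes, ordered by their control mean. Points are means and lines the range of 4 libraries, for NP24, Tβ10, Tβ4 and control from left to right. Igfbp7, Pappa and Igf2 differ most between groups, whereas Igf1r, Igf2r, Igfbp2 and Igfbp5 have means of 241 to 448 per kb in the 4 groups.

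Pappa fell with both NP24 and Tβ10, the only one of the 10 genes to pass the test in both comparisons. Pappa (ENSMUSG00000028370.7, GRCm38 chr4:65124174-65357509, plus strand) had 76.9, 116, 34.8 and 106 normalized counts in NP24 libraries 1 to 4. Tβ10 libraries had 97.0, 52.1, 89.2 and 47.7, Tβ4 libraries 307, 188, 159 and 180, and control libraries 343, 206, 184 and 404. Every NP24 and every Tβ10 library was below every control, and Tβ4 libraries overlapped the controls.

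Pappa averaged 83.4 ± 36.4 normalized counts in NP24 and 284 ± 107 in control libraries, a 3.51-fold fall with a log2 difference of -1.81 ± 0.32 (SE; 95% interval -2.47 to -1.15; limma, adjusted p = 0.0035). It averaged 71.5 ± 25.2 with Tβ10, a 3.91-fold fall and a log2 difference of -1.97 ± 0.29 from the same controls (95% interval -2.58 to -1.35; limma, adjusted p = 0.0024). Both calls held in all 17 alternative fits of each comparison, in which the adjusted p reached at most 0.0446 for NP24 and 0.0373 for Tβ10. With Tβ4, Pappa averaged 209 ± 67.0 and the difference from control was -0.41 (95% interval -1.02 to 0.19; limma, adjusted p = 0.863). In the authors' deposited table the log2 fold change of Pappa was -1.76 for NP24, -1.97 for Tβ10 and -0.45 for Tβ4.

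The peptides also differed from each other in Pappa. NP24 was below Tβ4 by a log2 difference of -1.40 ± 0.35 (limma fit of all 16 libraries, adjusted p = 0.0403), and Tβ4 was above Tβ10 by 1.55 ± 0.35 (adjusted p = 0.0288). These differences were less secure than those from control. The first lost its call without NP24 library 1 or 3 or Tβ4 library 1 or 4 (adjusted p = 0.0834, 0.139, 0.183 and 0.0839), with no filter on low values (0.0709) and in a fit of the 8 libraries concerned (0.110). The second lost its call without Tβ10 library 2 or 4 or Tβ4 library 1 or 4 (adjusted p = 0.0774, 0.109, 0.146 and 0.0684), with no filter (0.0557) and in the fit of 8 libraries (0.0596). NP24 and Tβ10 differed by 0.15, with a 95% interval of -0.58 to 0.88.

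Among 7 other proteases of the binding proteins and inhibitors of those proteases, of which 6 had enough reads to test, Stc2 fell with NP24 and with Tβ10 and no other gene passed the test. Stc2 encodes stanniocalcin-2, a secreted glycoprotein that binds PAPP-A and blocks its activity. It had 78.7, 124, 130 and 132 normalized counts in NP24 libraries, 118, 140, 92.8 and 121 in Tβ10 libraries, 256, 151, 208 and 209 in Tβ4 libraries and 228, 265, 340 and 264 in controls. As for Pappa, NP24 and Tβ10 libraries were all below the controls. The log2 difference was -1.25 ± 0.21 for NP24 (limma, adjusted p = 0.0028) and -1.21 ± 0.20 for Tβ10 (adjusted p = 0.0064), and both calls held whichever library was left out. For Tβ4 it was -0.42 (adjusted p = 0.736), and Pappa2, a second pappalysin that cuts IGFBP3 and IGFBP5, had the next smallest p there, with 0.87 (adjusted p = 0.761). NP24 was below Tβ4 in Stc2 by -0.83 ± 0.22 (adjusted p = 0.0492), a call that held in only 1 of 8 fits that left out a library of those groups.

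Igfbp7 fell with NP24 and had the largest difference between NP24 and Tβ4 among the 10 genes. It encodes a secreted protein of vessel walls and extracellular matrix that binds IGFs weakly. Igfbp7 (ENSMUSG00000036256.13, GRCm38 chr5:77349240-77408041, minus strand) had 22.2, 14.9, 15.1 and 23.1 normalized counts in NP24 libraries and 46.1, 21.1, 32.4 and 18.8 in Tβ10 libraries. Tβ4 libraries had 335, 151, 132 and 132, and controls 104, 45.9, 65.3 and 85.2. All NP24 libraries were below and all Tβ4 libraries above the controls, while Tβ10 library 1 overlapped the lowest control.

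Igfbp7 averaged 18.8 ± 4.45 normalized counts in NP24 and 75.1 ± 25.1 in control libraries, a 3.74-fold fall (log2 -1.90 ± 0.40, 95% interval -2.74 to -1.07; limma, adjusted p = 0.0138). This call was lost without control library 1 (adjusted p = 0.1002). Tβ10 averaged 29.6 ± 12.5, a log2 difference of -1.34 ± 0.38 that did not pass (limma, adjusted p = 0.137). It passed by DESeq2 on the recovered counts (adjusted p = 0.0417), but not in the authors' deposited DESeq2 table (adjusted p = 0.0659). Tβ4 averaged 188 ± 98.9, a log2 difference of 1.25 ± 0.35 with a 95% interval of 0.51 to 2.00 that did not pass either (limma, adjusted p = 0.458), and it was 0.93 without Tβ4 library 1. Set against each other, NP24 was 8.91-fold below Tβ4 (log2 -3.16 ± 0.38; adjusted p = 0.0002) and Tβ4 was 6.03-fold above Tβ10 (2.59 ± 0.38; adjusted p = 0.0011). Both of these calls held in all 17 alternative fits. NP24 and Tβ10 differed by -0.56 (95% interval -1.35 to 0.22). The Igfbp7 exons share 85 bases, 7.03% of their length, with those of Polr2b on the opposite strand, and Polr2b itself differed from control by 0.07 with NP24, 0.09 with Tβ10 and 0.01 with Tβ4.

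Igfbp3, the main carrier of IGFs in the blood, fell with NP24. Igfbp3 (ENSMUSG00000020427.11, GRCm38 chr11:7206086-7213923, minus strand) had 160, 117, 112 and 122 normalized counts in NP24 libraries, 95.4, 159, 126 and 113 in Tβ10 libraries, 293, 129, 301 and 192 in Tβ4 libraries and 241, 216, 188 and 279 in controls. All NP24 and all Tβ10 libraries were below the controls, and Tβ4 libraries overlapped the NP24, Tβ10 and control ranges. The log2 difference was -0.85 ± 0.20 for NP24, a 1.80-fold fall (limma, adjusted p = 0.0274), and -0.91 ± 0.21 for Tβ10, which did not pass (adjusted p = 0.0563). The NP24 call was lost without NP24 library 3 (adjusted p = 0.0951) or control library 1, 2 or 4 (0.117, 0.0683 and 0.0834) and with the spread of all 16 libraries (0.135). The Tβ10 difference passed by DESeq2 (adjusted p = 0.00517) and without Tβ10 library 2 (0.0131), and in the authors' deposited table the adjusted p was 0.0617 for NP24 and 0.0425 for Tβ10. With Tβ4 the difference from control was -0.08 (95% interval -0.64 to 0.48). Between peptides Igfbp3 did not pass by limma with all libraries. Without Tβ4 library 2, NP24 was below Tβ4 by -1.01 (limma, adjusted p = 0.0102) and Tβ4 above Tβ10 by 1.08 (adjusted p = 0.0075). With all libraries, both differences passed by DESeq2 (adjusted p = 0.0303 and 0.0211).

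The promoters of Igfbp7, Igfbp3 and Igf2, the binding protein and ligand genes with the largest differences between groups, are shown from RefSeq on GRCm38.p6 as the 250 bases before the annotated start. Capitals mark matches on either strand to the GC box GGGCGG, bound by SP1, the TATA box TATANA, the E-box CACGTG or the AP-1 site TGANTCA. Of the 10 genes, 9 had promoter entries, with 13 windows between them. The Igfbp7 window lies at chr5:77408046-77408295, minus strand, the Igfbp3 window at chr11:7213924-7214173, minus strand, and the Igf2 window, 1 of 4 for that gene, at chr7:142657497-142657746, minus strand.
Igfbp7: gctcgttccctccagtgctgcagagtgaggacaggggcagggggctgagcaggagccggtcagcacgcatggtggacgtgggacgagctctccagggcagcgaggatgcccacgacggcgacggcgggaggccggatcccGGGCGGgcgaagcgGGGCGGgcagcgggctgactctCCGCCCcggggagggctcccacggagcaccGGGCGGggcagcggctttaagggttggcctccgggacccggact
Igfbp3: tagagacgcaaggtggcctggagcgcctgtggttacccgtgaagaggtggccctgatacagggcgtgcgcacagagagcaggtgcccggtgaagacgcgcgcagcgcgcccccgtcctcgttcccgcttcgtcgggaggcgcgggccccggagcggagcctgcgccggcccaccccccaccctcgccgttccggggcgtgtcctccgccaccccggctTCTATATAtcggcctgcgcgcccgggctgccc
Igf2: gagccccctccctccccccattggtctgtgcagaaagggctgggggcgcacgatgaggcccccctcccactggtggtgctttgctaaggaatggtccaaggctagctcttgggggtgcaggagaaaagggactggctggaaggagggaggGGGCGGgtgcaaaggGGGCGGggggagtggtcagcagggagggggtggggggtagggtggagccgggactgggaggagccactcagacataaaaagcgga
The Igfbp7 window held 4 GC boxes, the Igf2 window 2, and the Igfbp3 window 2 overlapping TATA box matches that start 32 and 30 bases before the gene. A GC box was present in 32.7% and a TATA box in 22.6% of 32851 mouse promoter windows of the same length, an E-box in 6.02% and an AP-1 site in 6.75%. The windows shown were rich in G and C, at 74.0% for Igfbp7, 73.2% for Igfbp3 and 66.0% for Igf2, against a median of 52.4% over all windows. The Igf2 windows not shown differed from this, at 50.8%, 47.6% and 68.8% G and C, with 0, 0 and 1 GC boxes. The matches are descriptions of the letters, and gene counts do not say which Igf2 start was in use.

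**Figure D2:**
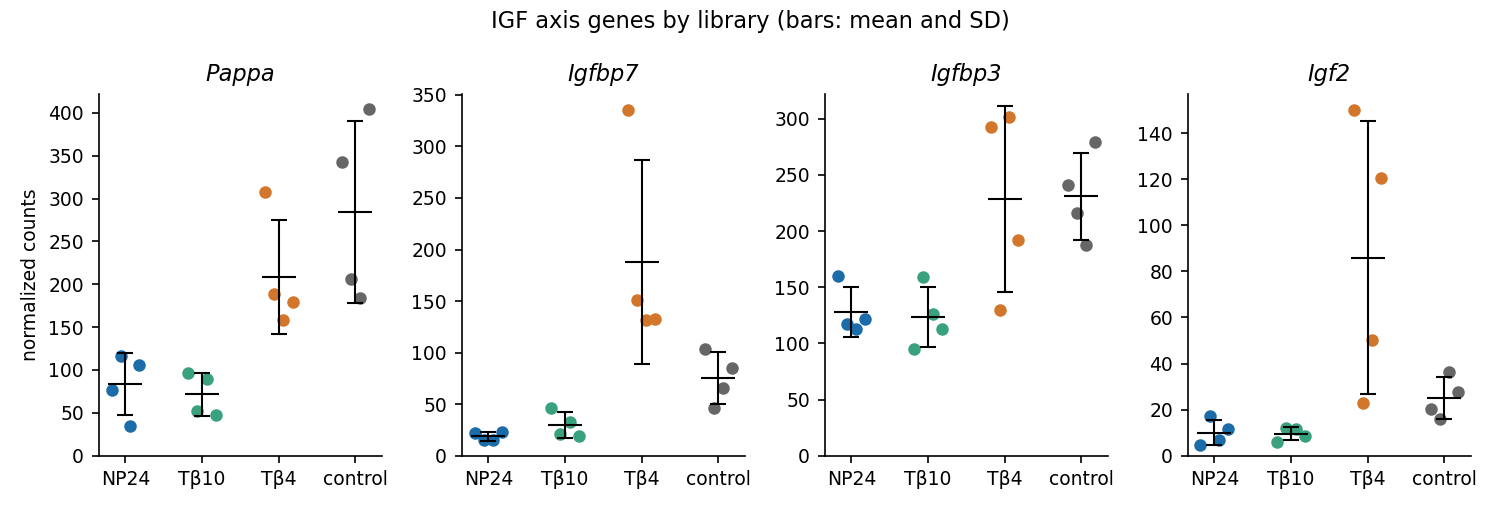
Normalized counts of Pappa, Igfbp7, Igfbp3 and Igf2 in each library, with libraries 1 to 4 from left to right within NP24, Tβ10, Tβ4 and control, and the mean and SD of each group in black. NP24 and Tβ10 lie below the controls in Pappa and Igfbp3, and Tβ4 lies above the controls in Igfbp7.

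Igfbp5, Igfbp2 and Igfbp4, the remaining binding proteins, did not pass the test with any peptide. Igfbp5, a substrate of PAPP-A (ENSMUSG00000026185.8, GRCm38 chr1:72857932-72874884, minus strand), lies 5457 bases from Igfbp2 (ENSMUSG00000039323.18, chr1:72824503-72852474, plus strand), with the ends of the genes facing each other. Igfbp5 had 1540, 1847, 1411 and 1203 normalized counts in NP24 libraries, 1064, 1734, 1478 and 1514 in Tβ10 libraries, 2805, 1464, 2386 and 2390 in Tβ4 libraries and 1419, 1600, 1147 and 2014 in controls. Tβ4 libraries 1, 3 and 4 exceeded every control, whereas library 2 lay among them. Its difference from control was -0.03 for NP24 (95% interval -0.33 to 0.27), -0.09 for Tβ10 (-0.43 to 0.26) and 0.54 for Tβ4 (0.10 to 0.98; limma, adjusted p = 0.615). Without Tβ4 library 2 the last was 0.74 and passed (adjusted p = 0.0185), as did Igfbp5 for NP24 minus Tβ4 (-0.76, adjusted p = 0.0094) and Tβ4 minus Tβ10 (0.82, adjusted p = 0.0063). With all libraries, Tβ4 minus Tβ10 also passed by DESeq2 (adjusted p = 0.0487).

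Igfbp2, which neural progenitors and glia secrete, had 760, 636, 717 and 459 normalized counts in NP24 libraries, 469, 679, 622 and 696 in Tβ10 libraries, 783, 607, 1063 and 859 in Tβ4 libraries and 615, 502, 653 and 628 in controls. The groups overlapped, again with Tβ4 library 2 among the controls. The differences were 0.08 for NP24 (95% interval -0.22 to 0.39), 0.03 for Tβ10 (-0.28 to 0.34) and 0.44 for Tβ4 (0.08 to 0.81; limma, adjusted p = 0.615), and without Tβ4 library 2 the last was 0.58 and passed (adjusted p = 0.0413). Igfbp4, the best known substrate of PAPP-A (ENSMUSG00000017493.12, GRCm38 chr11:99041244-99054392, plus strand), ranged from 223 to 358 normalized counts in NP24, 173 to 317 in Tβ10, 157 to 349 in Tβ4 and 258 to 323 in control libraries. Its difference from control was -0.10 for NP24 (95% interval -0.45 to 0.25), -0.27 for Tβ10 (-0.66 to 0.12) and -0.11 for Tβ4 (-0.62 to 0.40).

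Of the ligands, Igf2 was scarce in every group and differed most between Tβ4 and the other peptides. Igf2 (ENSMUSG00000048583.16, GRCm38 chr7:142650766-142666816, minus strand) is expressed from the paternal copy in most tissues. It had 4.63, 17.1, 6.96 and 11.6 normalized counts in NP24 libraries, 5.90, 12.2, 11.7 and 8.53 in Tβ10 libraries, 150, 22.7, 50.3 and 121 in Tβ4 libraries and 20.1, 15.9, 36.3 and 27.8 in controls. These rest on 5 to 123 reads per library. Every Tβ10 library was below every control, NP24 library 2 overlapped the controls, and Tβ4 library 2 lay among them while the other Tβ4 libraries lay above.

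The log2 difference of Igf2 from control was -1.31 ± 0.60 for NP24 (limma, adjusted p = 0.270), -1.28 ± 0.54 for Tβ10 (adjusted p = 0.370) and 1.47 ± 0.55 for Tβ4 (adjusted p = 0.615), none of which passed; without Tβ4 library 2 the Tβ4 value was 1.98 and passed (adjusted p = 0.0415). In NP24 and Tβ10 the gene entered the test through the controls, since 2 of 4 libraries of each peptide reached 10 normalized counts. Between peptides, NP24 was 6.85-fold below Tβ4 (log2 -2.78 ± 0.57; adjusted p = 0.0120) and Tβ4 was 6.71-fold above Tβ10 (2.75 ± 0.57; adjusted p = 0.0156). Both calls were lost without Tβ4 library 1 (adjusted p = 0.0753 and 0.0979) or 4 (0.0540 and 0.0799) and in fits of the 8 libraries concerned (0.0758 and 0.0857). The low side of these 2 differences rests on 5 to 16 reads per NP24 and 5 to 13 per Tβ10 library. Neither of these groups alone would have brought Igf2 into the test. NP24 and Tβ10 differed by -0.03 (95% interval -1.20 to 1.15). The gene model Gm49394 shares 3596 exon bases with Igf2 on the same strand, 62.8% of the Igf2 exons, and held the same number of reads in 14 of 16 libraries, so the values of this pair are not separate measurements.

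H19, the noncoding RNA made from the maternal copy of the same imprinted locus, lies 72.6 kb from Igf2 and shares enhancers with it. Among 5 genes of that locus and of proteins that bind Igf2 mRNA, 4 of them tested, H19 was the only one past the threshold. It averaged 103 ± 39.9 normalized counts in NP24, 95.1 ± 21.0 in Tβ10, 350 ± 158 in Tβ4 and 229 ± 32.3 in control libraries. It fell with NP24 (log2 -1.21 ± 0.24; limma, adjusted p = 0.0086) and Tβ10 (-1.28 ± 0.22; adjusted p = 0.0071), with all libraries below the controls. The 2 calls were lost without control library 1 (adjusted p = 0.0647 and 0.0739) and with the spread of all 16 libraries (0.0717 and 0.0777). Tβ4 differed from control by 0.49 (adjusted p = 0.825), and Igf2bp1, which encodes an mRNA-binding protein, had the next smallest p there, at 0.24. In the fit of 16 libraries NP24 was below Tβ4 in H19 by -1.71 ± 0.30 (adjusted p = 0.0044), and Tβ4 was above Tβ10 by 1.77 ± 0.30 (adjusted p = 0.0034). These calls held whichever library of the groups compared was left out.

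Igf1 was more abundant than Igf2 and did not pass the test with any peptide. Igf1 (ENSMUSG00000020053.18, GRCm38 chr10:87858265-87937042, plus strand) had 336, 334, 415 and 315 normalized counts in NP24 libraries, 361, 405, 341 and 247 in Tβ10 libraries, 549, 561, 659 and 355 in Tβ4 libraries and 299, 285, 427 and 373 in controls. Tβ4 libraries 1, 2 and 3 exceeded every control, and Tβ4 library 4 did not. The difference was 0.03 for NP24 (95% interval -0.31 to 0.36), -0.03 for Tβ10 (-0.41 to 0.35) and 0.60 for Tβ4 (0.16 to 1.04; limma, adjusted p = 0.523). Tβ4 minus Tβ10 was 0.63 (limma, adjusted p = 0.110), and 0.82 without Tβ4 library 4, where it passed (adjusted p = 0.0477). With all libraries it passed by DESeq2 (adjusted p = 0.0433).

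Neither receptor passed the test with any peptide. Igf1r (ENSMUSG00000005533.10, GRCm38 chr7:67952827-68233668, plus strand) had 5533, 4875, 5111 and 5557 normalized counts in NP24 libraries, 5786, 4422, 5109 and 6124 in Tβ10 libraries, 5079, 9206, 4782 and 5810 in Tβ4 libraries and 6108, 6746, 6283 and 6029 in controls. Every NP24 library was below every control, Tβ10 library 4 overlapped them, and Tβ4 library 2 was above all other libraries. The difference from control was -0.26 ± 0.08 for NP24 (95% interval -0.43 to -0.08; limma, adjusted p = 0.106). It passed by DESeq2 on the recovered counts of these 8 libraries (adjusted p = 0.0332). In the authors' deposited DESeq2 table it did not pass (adjusted p = 0.608). The Igf1r difference was -0.24 for Tβ10 (95% interval -0.49 to 0.00) and -0.07 for Tβ4 (-0.46 to 0.33). Igf2r (ENSMUSG00000023830.14, GRCm38 chr17:12682406-12769664, minus strand) ranged from 2146 to 2318 normalized counts in NP24, 2260 to 2307 in Tβ10, 2349 to 2472 in Tβ4 and 2209 to 2751 in control libraries. Its differences from control were -0.09 (95% interval -0.28 to 0.11), -0.06 (-0.28 to 0.16) and 0.03 (-0.22 to 0.27) for NP24, Tβ10 and Tβ4. Airn, which runs antisense through this locus, shares no exon bases with Igf2r.

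Counted together, 3 of the 10 genes fell with NP24 (Pappa, Igfbp7 and Igfbp3) and none rose, where 2.63% of all 21774 genes tested passed, 1.16% higher and 1.47% lower. With Tβ10, 1 of 10 fell, Pappa, where 0.633% of 21960 genes passed and 0.533% fell. With Tβ4, 0 of 10 passed, where 0.0% of 22205 genes did by limma; at an unadjusted p under 0.05 there were 5 of 10 higher and 0 lower, where 4.04% of all genes were higher and 3.02% lower, and 0 of the 10 passed by edgeR or DESeq2. Over all genes, edgeR called 0 and DESeq2 82 with Tβ4, 1568 (7.06%) had an unadjusted p under 0.05, and without Tβ4 library 2 limma called 354 genes, among them Igf2, Igfbp2 and Igfbp5. The median log2 difference of the 10 genes was -0.18 for NP24, -0.26 for Tβ10 and 0.24 for Tβ4, against 0.00 over all genes tested in each comparison. All libraries were lower than all controls in 4 of 10 genes with NP24 (4.77% of all genes) and 3 of 10 with Tβ10 (3.95%), and higher in 1 of 10 with Tβ4 (2.26%). The 3 genes for Tβ10 were Pappa, Igfbp3 and Igf2, and Igf2 is no support there, since it entered the test through the controls. The 3 comparisons share their control libraries. The 10 genes, and the lists used below, were chosen with earlier results of these data known. Their counts, here and in what follows, therefore cannot be read as an excess over the share of all genes. The 3 genes counted for NP24 were reduced to Pappa alone without control library 1.

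**Figure D3:**
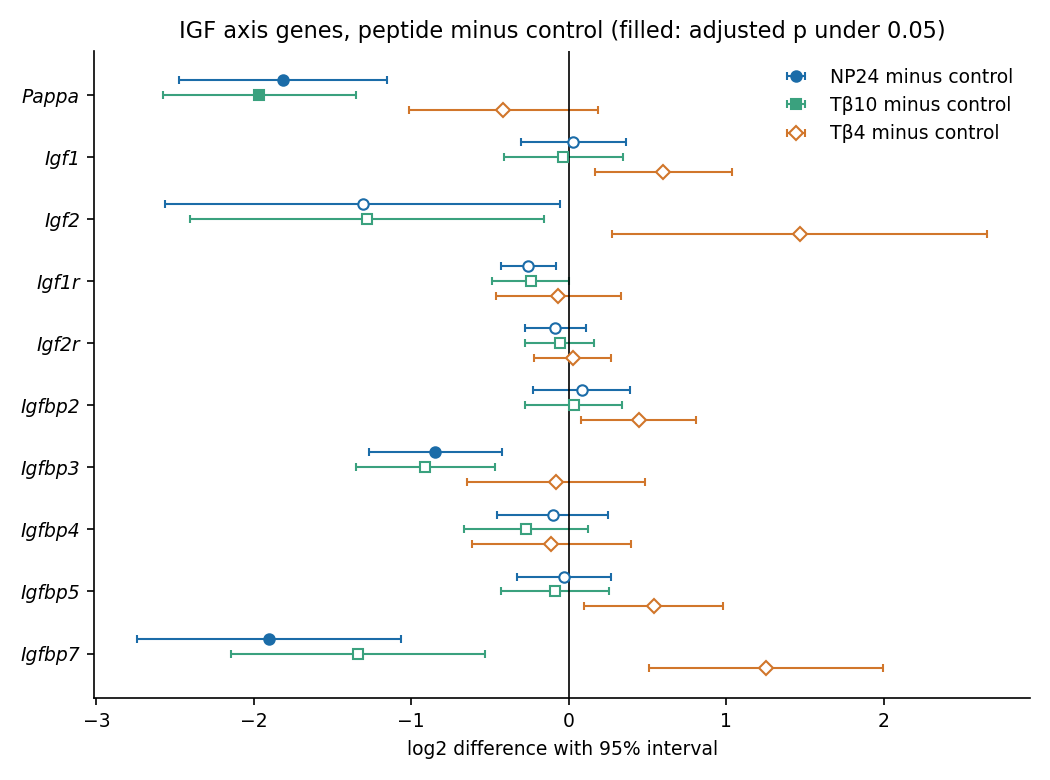
Log2 differences of the 10 genes from control, with 95% intervals, for NP24, Tβ10 and Tβ4 from top to bottom within each gene. Filled symbols passed at an adjusted p under 0.05: Pappa, Igfbp3 and Igfbp7 with NP24 and Pappa with Tβ10.

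The comparisons between peptides, made in 1 fit of all 16 libraries, asked where the responses themselves differed. NP24 was lower than Tβ4 in 3 of 10 genes (Pappa, Igfbp7 and Igf2), where 2.09% of 24232 genes passed and 1.65% were lower. Tβ4 was higher than Tβ10 in 3 of 10, again Pappa, Igfbp7 and Igf2, where 1.35% of genes passed and 1.05% were higher. These 2 comparisons share the Tβ4 libraries. Neither the NP24 nor the Tβ10 libraries alone would have brought Igf2 into the test, so Igf2 is no support for either count. Between NP24 and Tβ10, 0 of 10 passed, where 0.0% of all genes did by limma, 0 by edgeR and 0 by DESeq2, and 591 (2.44%) had an unadjusted p under 0.05. The counts of 3 became 1, Igfbp7, in fits of the 8 libraries concerned and without Tβ4 library 1. Without Tβ4 library 4 the count for NP24 against Tβ4 was also 1, and without Tβ4 library 2 both counts were 5. Scaling to library size moved the median of all genes by 0.14 for NP24 minus Tβ4 and -0.18 for Tβ4 minus Tβ10, with no change of sign among the genes called. Doses are not given, so whether the peptides were compared at matched doses is not known here.

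**Figure D4:**
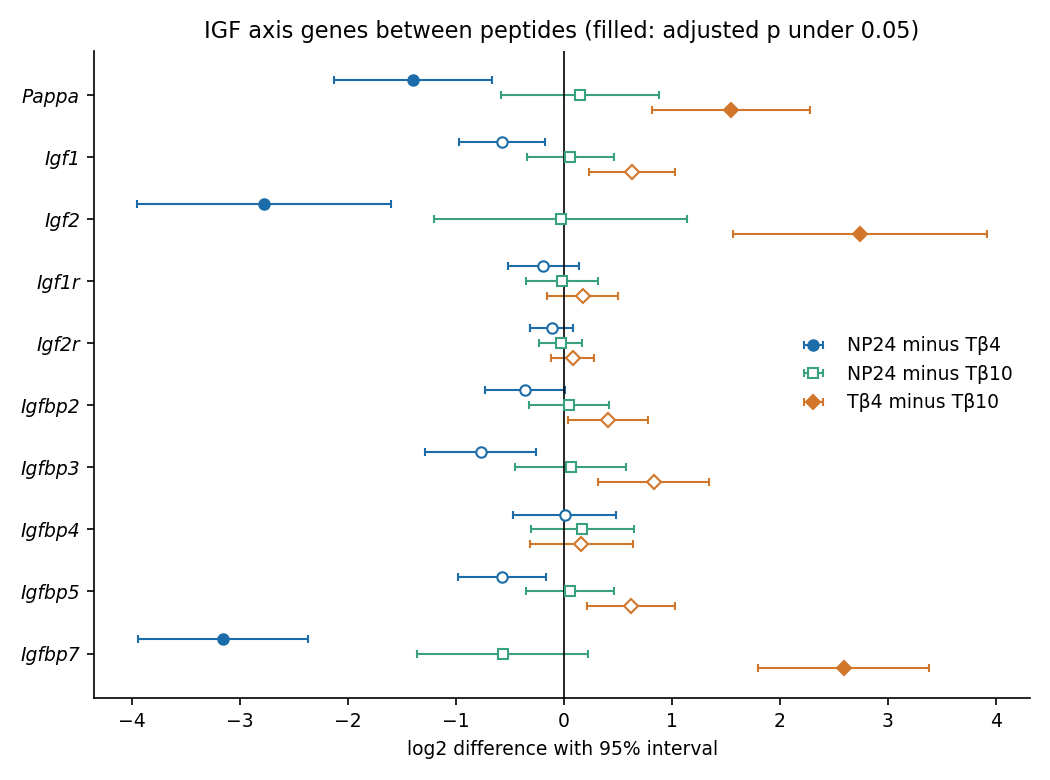
Log2 differences of the 10 genes between peptides with 95% intervals, NP24 minus Tβ4, NP24 minus Tβ10 and Tβ4 minus Tβ10 from top to bottom within each gene. Filled symbols passed at an adjusted p under 0.05. Pappa, Igf2 and Igfbp7 lie to the left for NP24 minus Tβ4 and to the right for Tβ4 minus Tβ10.

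Further genes of the pathway were taken from 8 lists, which hold 58 genes of the table, 51 of them tested in each comparison with control. Of the 51, 1 rose and 2 fell with NP24 (1.16% of all genes rose and 1.47% fell), 0 rose and 2 fell with Tβ10 (0.533% of all genes fell), and 0 passed with Tβ4 (0.0% of all genes). The falls were those of Stc2 and H19. The rise was Pdpk1, which encodes the kinase PDK1 that phosphorylates AKT: 2082 ± 162 normalized counts in NP24 and 1570 ± 70.3 in control libraries (log2 0.40 ± 0.09; limma, adjusted p = 0.0233). This call was lost without NP24 library 3 (adjusted p = 0.0929) or control library 1, 2 or 3 (0.0962, 0.0527 and 0.0638). It was the only one of 18 genes of the PI3K, AKT and mTOR list to pass with NP24. With Tβ10, Pdpk1 (0.34, adjusted p = 0.197) and Pik3cb (0.24), a catalytic subunit of PI3K, had the smallest p. With Tβ4 these were Tsc2 (-0.30), a brake on mTOR, and the GTPase Rheb (0.30), which activates it.

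No gene of the other lists passed, and the values that follow belong to the genes with the smallest p in each. For the insulin receptor gene Insr the difference from control was 0.17 with NP24, 0.07 with Tβ10 and 0.05 with Tβ4. Among 7 adaptors tested, which carry the signal from the receptor, NP24 gave 0.33 for Grb2 (adjusted p = 0.0891) and -0.17 for Irs2, Tβ10 gave -0.66 for Shc1 and 0.27 for Grb2, and Tβ4 gave 0.28 for Irs1 and -0.41 for Grb14. Among 9 FOXO factors and known targets, NP24 gave 0.38 for Sesn1 (adjusted p = 0.0521) and -0.21 for Foxo3, Tβ10 gave -0.25 for Foxo3 and 0.21 for Foxo6, and Tβ4 gave 0.17 for Sesn3 and 0.42 for Foxo4. The growth hormone receptor gene Ghr gave 0.45 with NP24 (adjusted p = 0.163), 0.50 with Tβ10 (0.177) and 0.49 with Tβ4 (0.793). The second gene of that list was Stat5b with NP24 (0.20) and Tβ4 (-0.22) and Socs2 with Tβ10 (0.22). The other binding protein genes tested, Igfbpl1 and the carrier subunit Igfals, gave -0.25 and 0.57 with NP24, -0.24 and 0.88 with Tβ10, and -0.14 and 0.12 with Tβ4. Adam28, Ghrhr, Igf2os, Igfbp1, Igfbp6, Insrr and Irs4 had too few reads to be tested against control.

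Summed markers of fibroblasts and of vessels were, like Igfbp7, Igf2 and H19, lower on average in NP24 and Tβ10 than in controls and highest in Tβ4. The 7 fibroblast and meningeal markers summed to 42.9 to 132 normalized counts in NP24, 84.1 to 130 in Tβ10, 371 to 1500 in Tβ4 and 273 to 419 in control libraries. Of the 5 tested, Col1a1, Col1a2 and Col3a1 fell with NP24 and with Tβ10. With Tβ4, 0 passed, and Lum was at 0 in the controls. Over all genes, 1.47% fell with NP24 and 0.533% with Tβ10. These collagen genes entered the tests through the controls, since not every NP24 or Tβ10 library reached 10 normalized counts. Dcn did not follow the sum, with means of 2.04 in NP24, 5.62 in Tβ10 and 2.10 in controls. The 7 pericyte and endothelial markers summed to 204 to 268 in NP24, 154 to 240 in Tβ10, 615 to 1340 in Tβ4 and 336 to 493 in control libraries. Of the 3 tested, Pdgfrb and Rgs5 fell with NP24 and with Tβ10. With Tβ4, 0 passed. Cldn5 was at 0 in NP24 and Tβ10 but averaged only 0.40 in controls and 1.49 in Tβ4, and was not tested against control. Pdgfrb and Rgs5 made up most of the sum, and the other genes did not all follow it. Cdh5 averaged 4.60 in NP24, 10.8 in Tβ10 and 4.05 in controls, and Kdr 3.85, 10.6 and 4.26. Kcnj8 averaged 0.85, 2.59 and 0.20 in the same order, and Pecam1 66.3, 30.9 and 69.4. Mitochondrial rRNA took 5.98 to 8.12% of reads in NP24, 4.76 to 9.53% in Tβ10, 8.25 to 24.3% in Tβ4 and 9.32 to 14.2% in control libraries. The part of these markers and of mitochondrial rRNA in the differences of Pappa, Stc2, Igfbp7, Igfbp3, Igf2 and H19 was not tested.

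**Figure D5:**
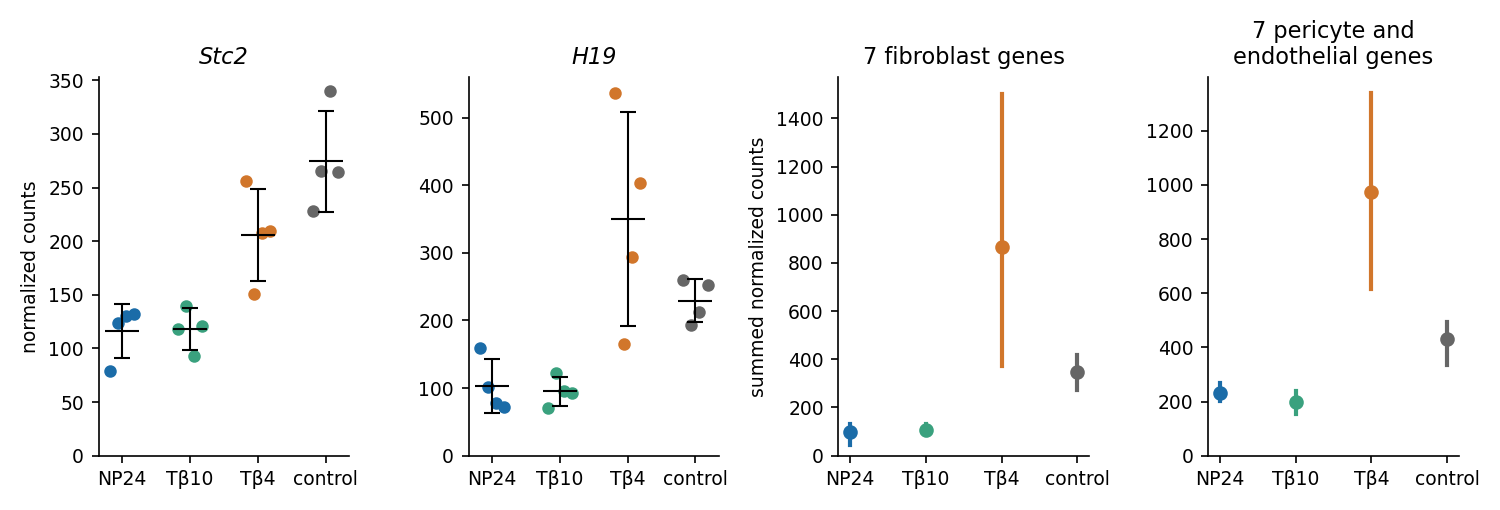
Left, normalized counts of Stc2 and H19 per library with group mean and SD. Right, the summed normalized counts of 7 fibroblast and meningeal genes and of 7 pericyte and endothelial genes, as group mean (point) and range of 4 libraries (line). All of them are lower in NP24 and Tβ10 than in controls, and H19 and both marker sums have their highest mean in Tβ4.

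Microglia and macrophage markers, 8 genes, summed to 1769 to 1885 normalized counts in NP24, 1696 to 2038 in Tβ10, 2042 to 2496 in Tβ4 and 1893 to 2291 in control libraries. Cd68 and Lyz2 fell with NP24 and with Tβ10, and 0 passed with Tβ4. Most of the sum was Cx3cr1, which did not fall, with means of 1362 in NP24, 1399 in Tβ10, 1404 in Tβ4 and 1304 in controls. Of the genes tested, 1 had a positive and 4 a negative log2 difference with NP24, and 1 and 5 with Tβ10. Tmem119 was at 0 in Tβ10 but averaged only 0.59 in controls. Lyz2 entered these tests through the controls, since not every NP24 or Tβ10 library reached 10 normalized counts. Over all genes, 1.47% fell and 1.16% rose with NP24, and 0.533% fell and 0.1% rose with Tβ10. The 7 astrocyte markers summed to 9119 to 9733 in NP24, 7598 to 10450 in Tβ10, 9629 to 11932 in Tβ4 and 7044 to 8593 in control libraries, with 1 of 7 higher in NP24 and in Tβ10 and 0 passing in Tβ4. The 7 oligodendrocyte lineage markers summed to 6180 to 8007 in NP24, 7135 to 9131 in Tβ10, 7609 to 10006 in Tβ4 and 8309 to 10299 in control libraries, where Olig2 and Mbp fell with NP24. Choroid plexus and ependymal markers, 6 genes, summed to 80.04 to 116 in NP24, 75.0 to 141 in Tβ10, 131 to 349 in Tβ4 and 129 to 196 in control libraries, and 0 passed with any peptide. Most of this sum was Foxj1, with means of 65.8, 82.4, 113 and 118 in the same order. The 3 red blood cell markers, of which 1 was tested, summed to 261 to 523 in NP24, 243 to 515 in Tβ10, 263 to 771 in Tβ4 and 307 to 473 in control libraries, and 0 passed. Nearly all of this sum was Alas2, while the globin genes Hbb-bs and Hba-a1 had group means of at most 8.89 and 5.34.

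Across the 16 libraries, the named genes most like Pappa included Slc1a5 (Pearson r = 0.94), which carries glutamine, Layn (0.92), a hyaluronan receptor, Cdc42bpg (0.89), a kinase, and Vegfa (0.89), the vascular growth factor. After each group's mean was taken away the same correlations were 0.73, 0.74, 0.61 and 0.50. The log2 difference of Slc1a5 from control was -1.15 with NP24, -1.19 with Tβ10 and -0.19 with Tβ4, and that of Vegfa was -0.86, -0.84 and -0.18. Those most like Igf2 were Col1a2 (0.95), Myo10 (0.93), Ccn1 (0.93), Sparc (0.91) and Col1a1 (0.91), with 0.85, 0.76, 0.75, 0.66 and 0.68 after the group means were taken away. Genes of extracellular matrix proteins, such as Col1a2, Sparc and Col1a1, were among them. Those most like Igfbp5 were Cenpf (0.95), Uhrf1 (0.94), Sox9 (0.93), Akap12 (0.92) and Arhgap11a (0.92), with 0.92, 0.94, 0.91, 0.90 and 0.87 after the group means were taken away. Cenpf and Uhrf1 are genes of dividing cells and Sox9 a factor of progenitors and glia. The values compared share their libraries and their depth, and about 12680 genes were ranked.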

How the data were processed

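Total RNA libraries (SMARTer Stranded kit, per the labels' protocols) were made from 16 samples of cultured neurons, 4 per group. FastQC, HISAT, HISAT2, featureCounts, DESeq2 and the build GRCm38 are named in the submitters' processing notes; versions, strand setting and annotation are not given in the sources used here. The deposited library values are signal, read counts per gene scaled by the authors with a single factor for each library, equal in the 3 deposited tables to within 4.9e-07. All nonzero values (100%) were whole multiples of 1 read at a tolerance of 0.01 reads, so counts were recovered. The deposited tables also hold the authors' log2 fold change with its SE, a Wald score and a p-value, used only where named.

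Differences were fitted with limma 3.58.1 (limma-trend, R 4.3.3) on log2(value + 1), a scale that understates changes of low genes, keeping genes that reached 10 normalized counts in 4 or more libraries of the comparison. P-values were adjusted by the Benjamini-Hochberg method over all genes tested, with a threshold of 0.05. Each peptide was set against control in a fit of 8 libraries, and peptides against each other in a fit of 16, with edgeR planned as the main test only for raw counts. The alternatives, 17 per comparison, were pseudocounts of 0.1 and 10, no filter, library-size and TMM scaling, another source of the spread (16 or 8 libraries), edgeR 4.0.16 and DESeq2 1.42.0 on recovered counts, a replicate block and leaving out each library. The limma step was tested on simulated data. After each group's mean was taken away, same-numbered libraries correlated at -0.302 to 0.113, so the numbers were not used as pairs. Gene positions are from GENCODE M21 on GRCm38, in which all 10 identifiers were found, and promoters from RefSeq. The 10 genes and all lists were chosen with earlier results of these data known. Of each list, every gene past the threshold was named, or the 2 with the smallest p where none passed. Likeness was ranked over named genes averaging 50 or more normalized counts; 1 gene that met the rule is not reported here.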

Additional observations from a re-analysis of the deposited data

Results flagged for a closer look

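One value stood far from the others of its group. Igfbp7 had 335.3 normalized counts in Tβ4 library 1, against 131.7 to 151.0 in the other Tβ4 libraries, a gap of 0.905 of the group's range, beyond Dixon's critical value for 4 samples. The same library had the highest share of mitochondrial rRNA, 24.3% of its reads. The 10 genes in 4 groups gave 40 such checks, of which chance alone flags about 1 in 20. Without this library the Igfbp7 difference between Tβ4 and control was 0.93 in place of 1.25, and the Igfbp7 calls between Tβ4 and the other peptides held.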

How the results depend on the processing

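Of 1020 values of the 10 genes under alternatives, 980 kept their side of the threshold, 24 were no longer past it, 16 came past it and 0 of those called changed direction. Among the 980, 61 that passed in neither fit had the other sign, all with a log2 difference of at most 0.19 in size as reported. For NP24 against control, 3 genes of the axis were called and 1 to 3 when a library was left out. For Tβ10 against control it was 1, with 3 by DESeq2 and 1 to 2 when a library was left out; for Tβ4 against control 0, and 0 to 3. For NP24 against Tβ4 it was 3, with 1 in the fit of 8 libraries and 1 to 5 when a library was left out; for Tβ4 against Tβ10 3, with 1 in the fit of 8, 6 by DESeq2 and 1 to 5. NP24 against Tβ10 gave 0 throughout.

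Over all genes, NP24 against control gave 572 calls, 365 with no filter, 120 with the spread of 16 libraries, 1178 by DESeq2 and 106 to 760 when a library was left out (292 and 206 without NP24 1 and 3; 106, 243 and 319 without control 1, 2 and 4). Tβ10 against control gave 139, 62 with the spread of 16 libraries, 432 by DESeq2 and 28 to 315 (252, 315, 55 and 69 without Tβ10 1, 2, 3 and 4; 28, 58 and 51 without control 1, 2 and 4). Tβ4 against control gave 0, 2 with the spread of 16, 82 by DESeq2 and 0 to 354 (354 without Tβ4 2). NP24 against Tβ4 gave 507, 109 in the fit of 8, 1172 by DESeq2 and 104 to 1392 (286, 290 and 296 without NP24 1, 3 and 4; 104, 1392 and 266 without Tβ4 1, 2 and 4). Tβ4 against Tβ10 gave 326, 184 with no filter, 607 with library-size scaling, 77 in the fit of 8, 813 by DESeq2 and 87 to 1052 (87, 1052 and 145 without Tβ4 1, 2 and 4; 172 and 171 without Tβ10 3 and 4). Library-size scaling changed the split from 253 higher and 319 lower to 502 and 254 for NP24, from 22 and 117 to 55 and 67 for Tβ10, from 107 and 400 to 362 and 269 for NP24 against Tβ4, and from 254 and 72 to 164 and 443 for Tβ4 against Tβ10. Fewer libraries or a spread pooled over other groups enter some of these fits by construction; otherwise the cause was not tested.

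The replicate numbers did not pair the libraries. With the replicate block the counts over all genes were 477 for NP24, 91 for Tβ10 and 2 for Tβ4 against control, 341 for NP24 against Tβ4 and 214 for Tβ4 against Tβ10, and no call among the 10 genes changed. Depth limits Igf2 most, at 5 to 16 reads per NP24 and 5 to 13 per Tβ10 library, followed by Igfbp7, at 13 to 26 reads per NP24 library.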

Other observations

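The 5 binding protein transcripts of the axis made up pools of different composition. Summed per kb of exon they gave 717 ± 107 normalized counts in NP24, 695 ± 110 in Tβ10, 1118 ± 248 in Tβ4 and 784 ± 82.7 in control libraries (mean ± SD, n = 4). Igfbp7 made up 2.24 ± 0.80% of this sum in NP24, 3.79 ± 2.32% in Tβ10, 13.9 ± 5.64% in Tβ4 and 7.84 ± 2.22% in control libraries. Igfbp3 made up 5.75 ± 0.96% in NP24, 5.65 ± 0.60% in Tβ10, 6.39 ± 1.12% in Tβ4 and 9.37 ± 0.73% in controls, with every peptide library below every control. Igfbp2 and Igfbp5 together held most of the pool in every group, Igfbp2 at 48.3% in NP24, 48.0% in Tβ10, 40.5% in Tβ4 and 41.6% in controls, and Igfbp5 at 34.9%, 34.5%, 33.5% and 32.6% in the same order. Igfbp4, the substrate of PAPP-A, made up 8.85% in NP24, 8.03% in Tβ10, 5.67% in Tβ4 and 8.61% in controls. The shares were not tested, and within a sum of shares a change of one transcript moves all the others.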
